A study of Mus musculus with 6 samples.

Results

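The genes described here encode the collagens, the laminins and the nidogens, the structural proteins of basement membranes and of the wider extracellular matrix. The members were all protein-coding genes of the GENCODE M21 mouse annotation whose symbol names a collagen chain, a laminin alpha, beta or gamma chain, or Nid1 or Nid2. This gave 57 of the 49315 genes in the count table, of which 44 are collagen chains, 11 are laminin chains and 2 are nidogens. The tissue was the medial ganglionic eminence (MGE), a ventral proliferative zone of the forebrain that gives rise to many interneurons of the cortex, taken from mice at embryonic day 14, and its RNA was sequenced. Every embryo carried the Nkx2.1-Cre driver and the Ai14 reporter. The WT group was Prdm16+/+ and the KO group was Prdm16fl/fl, which means that the control also held Cre and reporter but no floxed allele of Prdm16, a gene for a zinc finger transcription factor. Both groups had 3 libraries, each a pool of frozen tissue from 3 embryos (6 eminences). Nkx2.1-Cre acts in MGE progenitors and their progeny, so the cells of vessels, of meninges and of the blood in the dissected tissue are not expected to be recombined.

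Basement membranes are thin sheets of matrix that underlie the pial surface of the brain and surround its vessels. Laminins, each a trimer of an alpha, a beta and a gamma chain, form one network, type IV collagen forms a second, and nidogens and heparan sulphate proteoglycans link them. In the embryonic brain the pial sheet anchors the endfeet of radial glia, while endothelial cells and pericytes share the vascular sheet. Fibrillar collagens, by contrast, build the fibres of connective tissue, and other collagen classes attach to those fibres, span membranes or form beaded filaments.

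Total counts ran from 33188277 to 55552298 per library, and 18079 genes were expressed highly enough to be tested. Values are CPM, reads of a gene relative to its library's scaled total, given in the order WT 1 to 3 and KO 1 to 3, with mean ± SD over 3 libraries. A log2 change is the log2 fold change, KO minus WT, with its standard error (SE), and adjusted p-values are those of the quasi-likelihood test of edgeR with Benjamini-Hochberg adjustment over all tested genes. A gene is said to have been called, or to have risen or fallen, where that value was under 0.05. Prdm16 had 55.8, 47.0 and 45.4 CPM in WT and 53.6, 51.3 and 45.8 CPM in the libraries labelled KO (log2 change 0.02, SE 0.09, edgeR adjusted p = 0.884). Its counts cover the whole gene, and the sources used here do not name the exons that the floxed allele lacks, so every direction reported rests on the KO label. On the second principal component of expression (16.1% of variance) KO 1 stood at -34.99, away from KO 2 and KO 3 at 11.58 and 12.4. Y-linked genes summed to between 46.7 and 84.0 CPM in WT and to 238, 124 and 0.362 CPM in KO 1 to 3, so the pools also differed in their mix of sexes. Of the 8 listed MGE genes Lhx6, Dlx1 and Dlx6 fell, Lhx8 rose and 4 were not called. That is 37.5% lower and 12.5% higher, beside 10.5% and 9.72% of all tested genes. The list summed to between 3951 and 4227 CPM in WT and between 3475 and 4041 CPM in the libraries labelled KO.

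More of the called members were lower than higher, while most members were not called. Of the 51 members tested, 17 fell, 4 rose and 30 were not called in the libraries labelled KO, which is 33.3% lower and 7.84% higher. Over all tested genes 20.2% were called, 10.5% lower and 9.72% higher. The members that rose were Lama1, Col18a1, Col9a1 and Col5a1. Those that fell were 7 of the 11 laminin chains (among them Lama2, Lama3, Lama4, Lama5, Lamb1 and Lamc3), 3 type IV chains (Col4a3, Col4a4 and Col4a6) and 7 other collagens (Col6a5, Col12a1, Col16a1, Col22a1, Col25a1, Col26a1 and Col28a1). In 22 members (43.1%) the WT and KO libraries did not overlap, against 39.9% of all tested genes. These were 18 members with KO below WT (35.3%, background 19.6%) and 4 with KO above WT (7.84%, background 20.3%). The median log2 fold change was -0.07 over the tested members, -0.60 over the laminin chains, -0.03 over the collagen chains and 0.10 over the collagen chains outside type IV, beside -0.0024 over all tested genes. In bulk tissue, fewer cells of a type and less RNA per cell cannot be told apart.

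**Figure D1:**
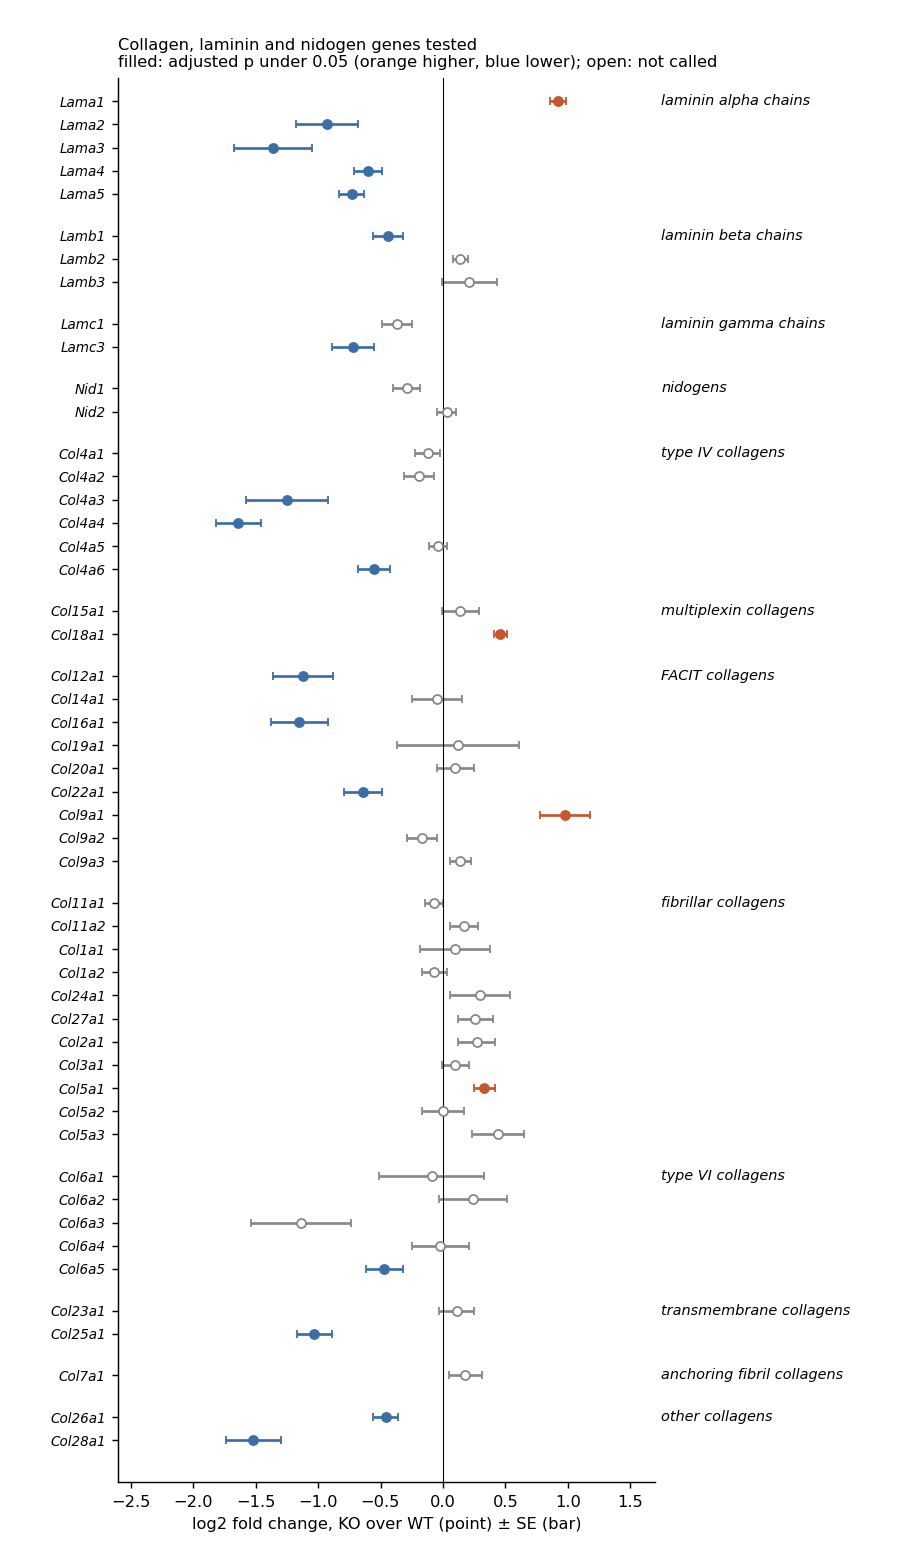
Log2 fold change (KO minus WT, edgeR) of tested collagen, laminin and nidogen genes, grouped by role, with bars of 1 SE. Lama1, Col18a1, Col9a1 and Col5a1 lie to the right of 0 and were called, while Col4a4 (-1.64) and Col28a1 (-1.52) are among those farthest to the left.

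Most of the abundant members were not called with all libraries kept. Compared per kilobase of exon, which allows different genes to be ranked, Col4a1 was highest over the 6 libraries at 21.9 CPM per kb, followed by Col4a2 at 18.0, Col2a1 at 9.99, Col18a1 at 9.24, Lamb2 at 9.14, Col9a3 at 7.81, Lamc1 at 6.67, Nid1 at 6.06, Col5a2 at 5.73 and Nid2 at 3.59. Lengths are those of the merged exons of all annotated transcripts of a gene, and the ranking depends on them. Ranks 11 and 12 were held by Col22a1 at 3.13 CPM per kb, which fell, and Col11a1 at 3.09, which was not called. Only Col18a1 among the first 10 was called, and it rose, while 20.2% of all tested genes were called in either direction. Without KO 1, edgeR also called Col4a1, Col4a2, Lamc1 and Nid1 (lower) and Col2a1, Col9a3 and Lamb2 (higher). Col5a2 and Nid2 were not called in that fit, where 20.9% of all tested genes were lower and 20.6% higher. The 17 members that fell had a median level of 0.443 CPM per kb, and 4 of them reached 1 CPM per kb (Col22a1, Lamb1, Lama4 and Col26a1). The 30 that were not called had a median of 0.569 CPM per kb, with 13 at or above 1.

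All 5 laminin alpha chains, the chains that carry the main cell-binding domains, were called, and they went in opposite directions. Lama1, the alpha chain of the laminin of early embryos and of the pial sheet (chromosome 17, 67697259 to 67822647, GRCm38), had 19.4, 18.3 and 19.1 CPM in WT and 36.7, 35.1 and 35.6 CPM in the libraries labelled KO. Every KO library was above every WT library, and the means rose 1.89-fold from 18.9 ± 0.552 to 35.8 ± 0.785 CPM (log2 change 0.92, SE 0.063, edgeR adjusted p = 4.84e-05). Lama4, the alpha chain best known from vascular basement membranes (chromosome 10, 38965515 to 39110188), had 27.0, 24.8 and 25.0 CPM in WT and 20.3, 15.3 and 15.1 CPM in KO 1 to 3. The groups did not overlap, KO 1 was the highest of its group, and the mean fell 1.52-fold from 25.6 ± 1.22 to 16.9 ± 2.96 CPM (log2 change -0.60, SE 0.11, edgeR adjusted p = 0.00845). Lama5, a chain of vessels and epithelia (chromosome 2, 180176373 to 180225859), had 12.2, 11.9 and 11.2 CPM in WT and 7.9, 6.59 and 6.76 CPM in the libraries labelled KO. It too showed no overlap and fell 1.66-fold (log2 change -0.73, SE 0.10, edgeR adjusted p = 0.00201). Lama1, Lama4 and Lama5 were called whichever library was left out.

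The remaining alpha chains were low. Lama2, the chain of muscle and of vessel-associated laminin, had 1.82, 1.52 and 1.93 CPM in WT and 1.31, 0.796 and 0.689 CPM in KO 1 to 3, a fall of 1.9-fold (log2 change -0.93, SE 0.25, edgeR adjusted p = 0.0298). Lama3, an epithelial chain, had 1.15, 2.3 and 2.03 CPM in WT and 0.948, 0.494 and 0.652 CPM in KO 1 to 3, a fall of 2.56-fold (log2 change -1.36, SE 0.31, edgeR adjusted p = 0.0171). In both genes all KO libraries were below all WT libraries, with WT 1 close to KO 1 for Lama3. The call of Lama2 was lost when any library but KO 1 was left out (edgeR adjusted p from 0.063 to 0.11), and that of Lama3 when KO 2, KO 3, WT 2 or WT 3 was left out (0.0635 to 0.0699). Lama2 shares 3.862% of its exon bases, and Lama3 1.833%, with an antisense gene, and the sources used here give no strand setting for the counting.

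The opposite changes altered which alpha chain transcript was the most abundant. Summed over the 5 genes the alpha chains reached 5.39 ± 0.124 CPM per kb in WT and 5.84 ± 0.425 CPM per kb in the libraries labelled KO. Lama1 made up 36.1%, 35.7% and 37.0% of that sum in WT, against 59.8%, 65.2% and 65.4% in KO 1 to 3. Lama4 made up 40.5%, 38.8% and 38.8% in WT and 26.6%, 22.7% and 22.2% in the libraries labelled KO. Lama4 thus led Lama1 in each WT library and Lama1 led Lama4 in each library labelled KO. The ratio of Lama1 to Lama4 in CPM per kb was 0.893, 0.92 and 0.953 in WT and 2.25, 2.87 and 2.95 in KO 1 to 3. Lama5 went from 19.2 ± 0.672% to 10.6 ± 0.29% of the sum. These shares restate the calls above and were not tested separately.

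**Figure D2:**
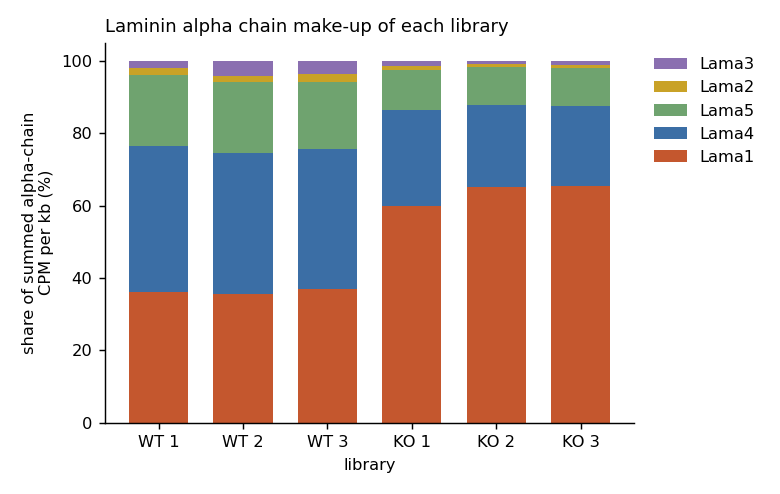
Share (%) of each laminin alpha chain gene in the summed CPM per kb of the 5 alpha chain genes, 1 stacked bar per library. Lama1 takes 35.7% to 37.0% in the WT libraries and 59.8% to 65.4% in the libraries labelled KO.

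Among the beta chains Lamb1 fell and Lamb2 and Lamb3 were not called. Lamb1, the beta chain of early laminins, had 24.5, 25.2 and 27.0 CPM in WT and 22.7, 16.8 and 16.9 CPM in KO 1 to 3. KO 1 lay just under the lowest WT library and KO 2 and KO 3 well under it, and the mean fell 1.36-fold from 25.6 ± 1.27 to 18.8 ± 3.36 CPM (log2 change -0.44, SE 0.12, edgeR adjusted p = 0.027). This call was lost when any library but KO 1 was left out (edgeR adjusted p from 0.0609 to 0.105). Lamb2, the chain that replaces Lamb1 in many mature sheets and the most abundant laminin gene here per kilobase, had 55.8, 52.2 and 50.4 CPM in WT and 55.6, 61.1 and 58.4 CPM in KO 1 to 3 (log2 change 0.14, SE 0.063, edgeR adjusted p = 0.131). The Lamb2 groups overlapped through WT 1 and KO 1, and without KO 1 the value was 0.18 (edgeR adjusted p = 0.019). Lamb3, an epithelial chain, averaged 1.25 ± 0.341 CPM in WT and 1.44 ± 0.119 CPM in KO (edgeR adjusted p = 0.522). The 3 beta chains together went from 11.5 ± 0.298 to 11.7 ± 0.238 CPM per kb.

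Among the gamma chains Lamc3 fell, while the abundant Lamc1 missed the threshold. Lamc1, the gamma chain of most laminins (chromosome 1, 153218922 to 153332786), had 64.8, 63.7 and 58.2 CPM in WT and 59.3, 44.3 and 40.8 CPM in KO 1 to 3. KO 1 lay inside the WT range and KO 2 and KO 3 under it (log2 change -0.37, SE 0.12, edgeR adjusted p = 0.0645). Without KO 1 the log2 fold change of Lamc1 was -0.55 (edgeR adjusted p = 2e-05), and DESeq2 called it with all libraries (adjusted p = 0.0195). Lamc3 had 6.07, 5.71 and 4.88 CPM in WT and 3.97, 3.62 and 2.59 CPM in KO 1 to 3 and fell 1.64-fold without overlap (log2 change -0.72, SE 0.17, edgeR adjusted p = 0.0199). That call was lost without KO 2, KO 3, WT 1 or WT 2 (edgeR adjusted p from 0.0525 to 0.0721), and 6.272% of Lamc3 exon bases are shared with an antisense gene.

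**Figure D3:**
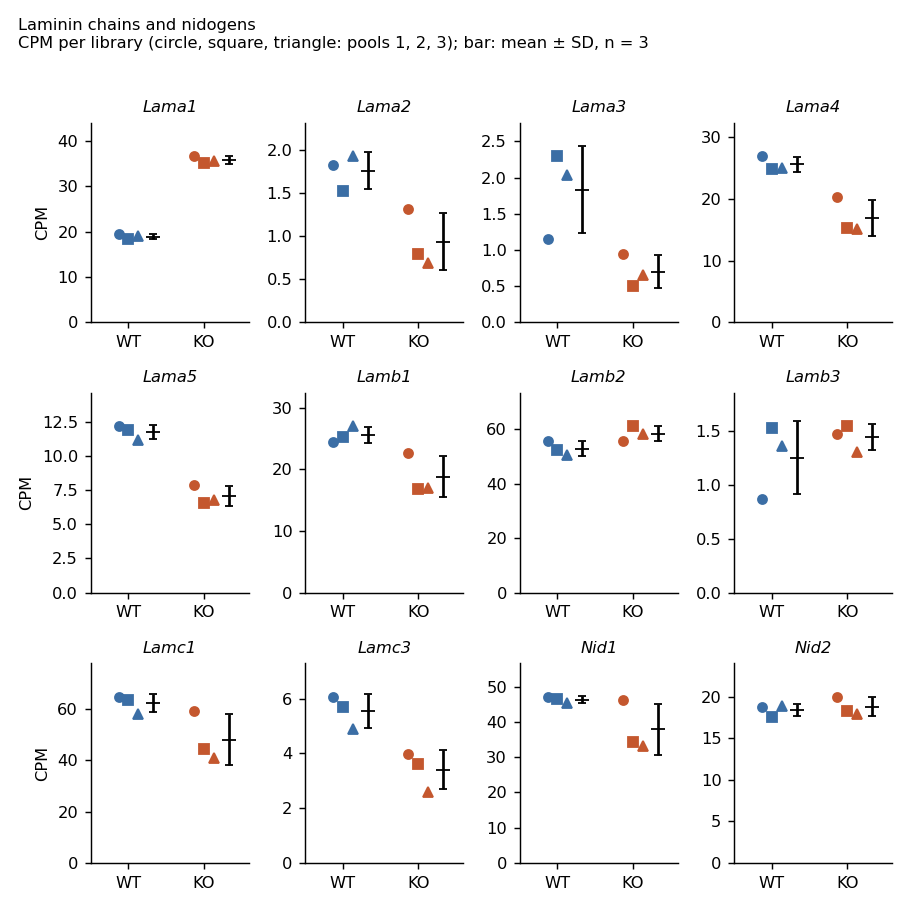
CPM of 10 laminin chain genes and of both nidogens in each of the 6 libraries, with bars of group mean ± SD (n = 3). Lama1 is higher in all 3 libraries labelled KO, whereas KO 1 lies near or inside the WT range for Lamc1, Nid1 and Lamb1.

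Neither nidogen was called. Nid1, which binds the laminin gamma1 arm and type IV collagen, had 47.2, 46.4 and 45.3 CPM in WT and 46.2, 34.2 and 33.3 CPM in KO 1 to 3 (log2 change -0.29, SE 0.11, edgeR adjusted p = 0.0977). KO 1 stood within the WT values and the other KO libraries under them, and without KO 1 the value was -0.45 (edgeR adjusted p = 3.2e-05). Nid2, its paralog, had 18.7, 17.6 and 18.9 CPM in WT and 20.0, 18.3 and 17.9 CPM in KO 1 to 3 (log2 change 0.03, SE 0.076, edgeR adjusted p = 0.824), with overlapping groups.

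The 6 type IV collagen genes lie as 3 head-to-head pairs, each pair read outward from a shared start region. Both genes of the Col4a3 and Col4a4 pair fell, 1 of the Col4a5 and Col4a6 pair fell, and neither of the abundant Col4a1 and Col4a2 pair was called. The start regions are shown because they set the pairs side by side. Sequences are from RefSeq with the build GRCm38.p6, and capitals mark a GC box (GGGCGG, read on either strand) or a CCAAT box (CCAAT, either strand). The first is the whole gap of 71 bases between the Col4a4 and Col4a3 starts (chr1:82586850-82586920, minus strand). The next is the stretch of 22 bases shared by the first exons of Col4a1 and Col4a2 (chr8:11312805-11312826, plus strand). The others are the bases ahead of Col4a6 (chrX:141474077-141474326, minus strand) and of Col4a5 (chrX:141475169-141475384, plus strand), whose starts are 1308 bases apart.
Col4a4 to Col4a3 gap: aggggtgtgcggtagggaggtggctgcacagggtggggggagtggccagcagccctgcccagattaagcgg
Col4a1 and Col4a2 shared bases: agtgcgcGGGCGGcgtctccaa
Col4a6 upstream: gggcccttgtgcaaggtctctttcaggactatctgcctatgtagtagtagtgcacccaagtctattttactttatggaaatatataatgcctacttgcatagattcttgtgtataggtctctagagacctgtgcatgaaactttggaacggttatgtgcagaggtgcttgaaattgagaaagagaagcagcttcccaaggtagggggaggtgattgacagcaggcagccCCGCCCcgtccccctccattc
Col4a5 upstream: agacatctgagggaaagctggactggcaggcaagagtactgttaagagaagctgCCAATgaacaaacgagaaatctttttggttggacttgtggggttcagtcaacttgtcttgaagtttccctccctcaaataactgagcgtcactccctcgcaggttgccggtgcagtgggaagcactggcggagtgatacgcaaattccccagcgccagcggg
The GC box letters occur 1 time each in the Col4a1 and Col4a2 shared bases and ahead of Col4a6, the CCAAT letters occur 1 time ahead of Col4a5, and neither is in the gap between Col4a4 and Col4a3.

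Col4a4 and Col4a3 encode chains of the network best known from the kidney filter, and both were scarce in the MGE. Col4a4 (chromosome 1, 82448423 to 82586849) had 3.43, 2.66 and 2.45 CPM in WT and 0.858, 0.961 and 0.924 CPM in the libraries labelled KO. The groups were far apart, and it fell 3.12-fold from 2.84 ± 0.513 to 0.914 ± 0.0523 CPM (log2 change -1.64, SE 0.18, edgeR adjusted p = 0.000593), whichever library was left out. Col4a3 (chromosome 1, 82586921 to 82722059) had 0.455, 0.329 and 0.365 CPM in WT and 0.181, 0.137 and 0.163 CPM in the libraries labelled KO, again without overlap. It fell 2.37-fold (log2 change -1.25, SE 0.33, edgeR adjusted p = 0.028), but the call was lost when any library but KO 1 was left out (0.0671 to 0.0991). DESeq2 gave Col4a3 no adjusted p, and 5.649% of its exon bases are shared with a gene on the opposite strand.

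Col4a5 and Col4a6 encode the chains of another type IV network and lie on the X chromosome. Col4a6 (141165403 to 141474076) had 5.29, 5.26 and 5.66 CPM in WT and 4.31, 3.4 and 3.39 CPM in KO 1 to 3, and it fell 1.46-fold (log2 change -0.55, SE 0.13, edgeR adjusted p = 0.0207). The groups did not overlap, and the call was lost when any library but KO 1 was left out (edgeR adjusted p from 0.0537 to 0.089). Col4a5 (141475385 to 141689234) had 19.2, 17.9 and 17.5 CPM in WT and 18.0, 18.1 and 17.1 CPM in the libraries labelled KO, with overlapping groups (log2 change -0.04, SE 0.073, edgeR adjusted p = 0.732). The ratio of Col4a6 to Col4a5 in CPM per kb was 0.233, 0.248 and 0.272 in WT and 0.202, 0.159 and 0.167 in KO 1 to 3, lower in each library labelled KO.

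Col4a1 and Col4a2 encode the chains of the type IV network found in nearly all basement membranes, and were the members with the highest levels per kilobase. Col4a1 (chromosome 8, 11198423 to 11312826) had 169, 169 and 172 CPM in WT and 187, 147 and 135 CPM in KO 1 to 3 (log2 change -0.12, SE 0.10, edgeR adjusted p = 0.424). Col4a2 (chromosome 8, 11312805 to 11449287) had 122, 126 and 132 CPM in WT and 136, 101 and 97.3 CPM in KO 1 to 3 (log2 change -0.19, SE 0.12, edgeR adjusted p = 0.278). For both genes KO 1 was the highest of the 6 libraries and KO 2 and KO 3 were below every WT library. Without KO 1 the log2 fold changes were -0.26 for Col4a1 (edgeR adjusted p = 0.000723) and -0.35 for Col4a2 (9.57e-05). Their ratio, Col4a2 to Col4a1 in CPM per kb, stayed between 0.772 and 0.865 over the 6 libraries.

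**Figure D4:**
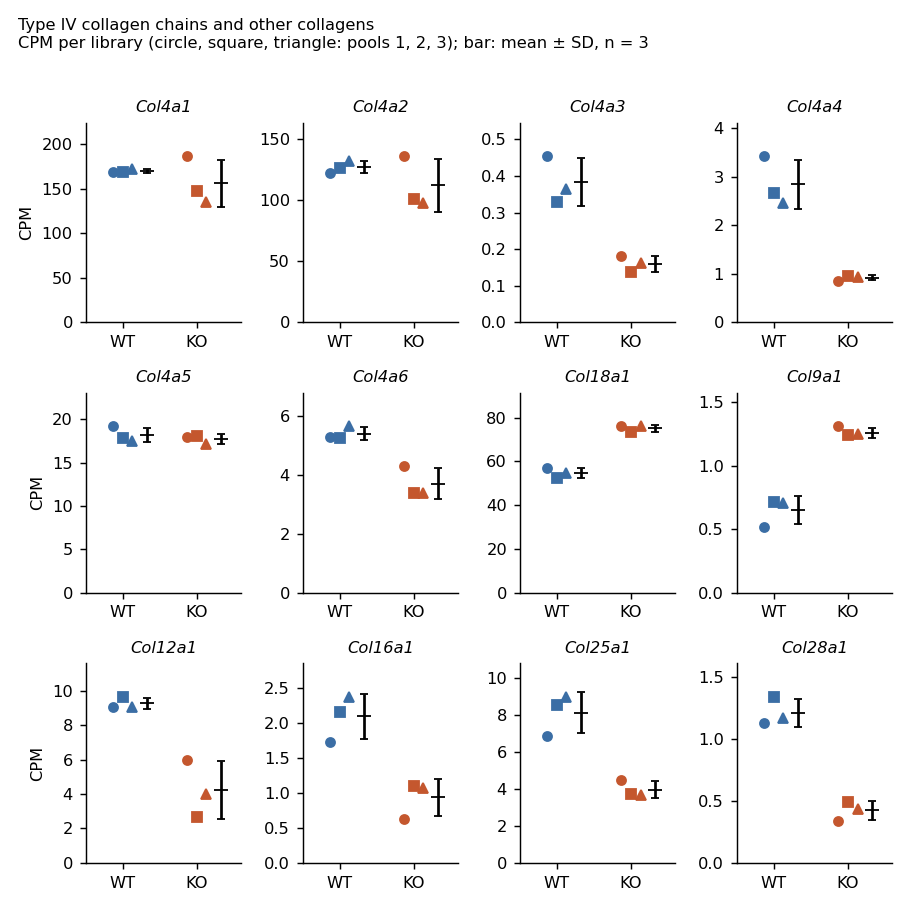
CPM of the 6 type IV collagen genes and of Col18a1, Col9a1, Col12a1, Col16a1, Col25a1 and Col28a1 in each library, with bars of group mean ± SD (n = 3). Col4a1 and Col4a2 are highest in KO 1 and lowest in KO 2 and KO 3, while Col4a4 lies at 2.45 CPM or more in WT and at 0.961 CPM or less in the libraries labelled KO.

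The position of KO 1 recurred across the major basement membrane genes. As a percent of the WT mean, KO 1, KO 2 and KO 3 stood at 108%, 79.5% and 76.7% for Col4a2, at 95.2%, 71.1% and 65.6% for Lamc1, at 99.8%, 74.0% and 71.9% for Nid1, and at 79.2%, 59.5% and 58.8% for Lama4. Lama1 went the other way, at 194%, 186% and 188% in KO 1 to 3. Pdgfrb and Rgs5, markers of pericytes, the mural cells that share the vascular sheet, were also highest in KO 1 among the KO libraries. Pdgfrb stood at 88.9%, 67.0% and 71.0% and Rgs5 at 88.2%, 57.4% and 63.1%. The other listed pericyte and smooth muscle markers were likewise highest in KO 1 among these libraries, except Kcnj8 and Tagln. Kcnj8 had 6.16, 5.74 and 6.16 CPM and Tagln 0.384, 0.576 and 0.671 CPM in KO 1 to 3. Of 11 pericyte and smooth muscle markers 7 fell (63.6%, beside 10.5% of all tested genes). The whole list summed to between 242 and 254 CPM in WT and between 197 and 263 CPM in the libraries labelled KO. Notch3, which was not among the 7, gave between 94.8 and 141 CPM of that sum and went up. All its KO libraries were above all its WT libraries, but it was not called (log2 change 0.26, edgeR adjusted p = 0.0847). Tagln was also higher (0.2, edgeR adjusted p = 0.662), with overlapping groups. The 10 markers other than Notch3 summed to between 145 and 148 CPM in WT and between 87.6 and 123 CPM in KO. Of 15 endothelial markers 3 fell (Cldn5, Tie1 and Slco1c1), which is 20.0%, beside the same 10.5%. The endothelial list summed to between 291 and 297 CPM in WT and between 233 and 269 CPM in the libraries labelled KO. Egfl7 (log2 change 0.21), Emcn (0.43) and Sox18 (0.08) went the other way and were not called, with no overlap of the groups for Egfl7. Cdh5 stood at 92.7%, 86.0% and 86.3% and Pecam1 at 111%, 89.6% and 83.9% of the WT mean in KO 1 to 3. The part of these cells in the fall of the matrix genes was not tested.

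Without KO 1, 23 members fell and 7 rose of the 52 tested, beside 20.9% lower and 20.6% higher of all genes tested. Members called by edgeR without KO 1 but not with all libraries were Col4a1, Col4a2, Lamc1, Nid1, Col6a3 and Col8a1 (lower) and Col2a1, Col9a3 and Lamb2 (higher). With all libraries, KO 1 was the highest of the KO libraries in 28 of the 51 tested members (54.9%) and in 40.0% of all tested genes. Among those that fell it was the highest in 12 of 17 members (70.6%) and in 75.0% of all genes that fell. The Y-linked sum was also highest in KO 1. With the Y-linked share as a covariate and all libraries kept, Col4a1 (log2 change -0.23, edgeR adjusted p = 0.00797), Col4a2 (-0.3, 0.00691) and Col2a1 (0.39, 0.000515) were also called. Lamc1, Nid1 and Col6a3 were called lower in that fit as well. As that share was highest in KO 1, the fit does not separate the mix of sexes from KO 1. The part of the mix of sexes was not tested on its own.

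**Figure D5:**
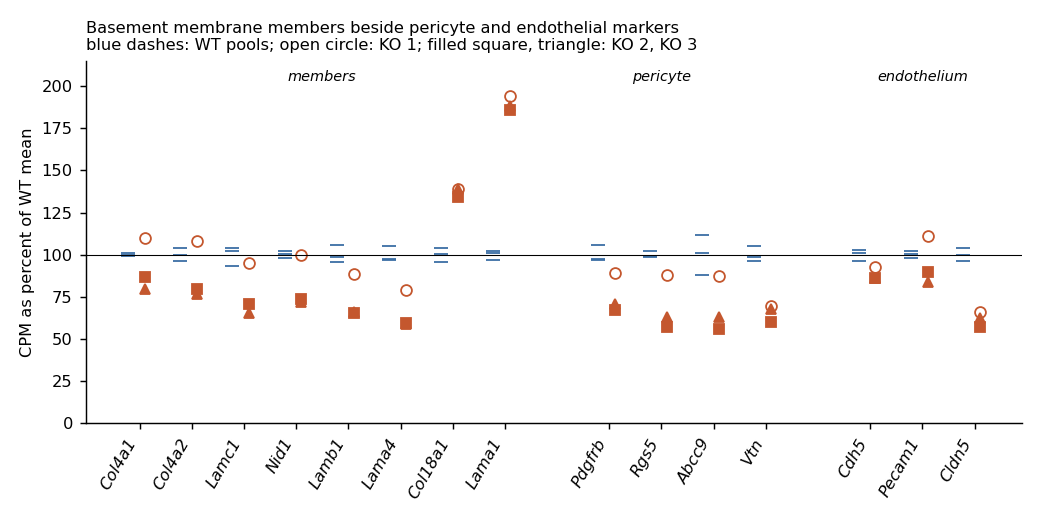
Level of basement membrane genes and of pericyte and endothelial markers in KO 1, KO 2 and KO 3 as a percent of the WT mean, with 100% marked. KO 1 is above KO 2 and KO 3 for Col4a1, Col4a2, Lamc1, Nid1, Lamb1 and Lama4 and for the markers Pdgfrb, Rgs5 and Cdh5, and Lama1 lies between 186% and 194% in all 3.

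Col18a1 was the abundant collagen that rose. It encodes a collagen of basement membranes that carries heparan sulphate chains and gives rise to endostatin (chromosome 10, 77052178 to 77166548). It had 56.8, 52.5 and 54.8 CPM in WT and 76.0, 73.2 and 76.0 CPM in the libraries labelled KO. The groups were clearly apart, KO 1 included, and the mean rose 1.37-fold from 54.7 ± 2.15 to 75.0 ± 1.62 CPM (log2 change 0.46, SE 0.055, edgeR adjusted p = 0.000875), whichever library was left out. Col15a1, the other collagen of this class, was not called at 4.55 ± 0.762 and 5.0 ± 0.462 CPM (log2 fold change 0.14, edgeR adjusted p = 0.523).

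Of the 9 FACIT collagens, which sit on the surface of fibrils or at tissue borders, 3 fell and 1 rose (33.3% and 11.1%, beside 10.5% and 9.72% of all tested genes). Col9a1, a chain of type IX collagen, had 0.52, 0.717 and 0.704 CPM in WT and 1.31, 1.24 and 1.25 CPM in the libraries labelled KO, a rise of 1.97-fold with no overlap (log2 change 0.98, SE 0.20, edgeR adjusted p = 0.0119). Its partner chains Col9a2 (7.17 ± 0.857 and 6.36 ± 0.388 CPM) and Col9a3 (28.7 ± 1.48 and 31.5 ± 3.41 CPM) were more abundant and not called (edgeR adjusted p = 0.33 and 0.287). Col9a3 passed without KO 1 (log2 fold change 0.22, edgeR adjusted p = 0.0175), and 6.073% of its exon bases are shared with Tcfl5 on the opposite strand. Col12a1, a fibril-associated collagen, had 9.06, 9.65 and 9.07 CPM in WT and 6.0, 2.64 and 4.02 CPM in KO 1 to 3 and fell 2.18-fold (log2 change -1.12, SE 0.24, edgeR adjusted p = 0.0142). Its 3 WT libraries were close together and its KO libraries spread widely below them. Col16a1 had 1.73, 2.15 and 2.37 CPM in WT and 0.632, 1.1 and 1.07 CPM in KO 1 to 3 and fell 2.22-fold (log2 change -1.15, SE 0.23, edgeR adjusted p = 0.011). Col22a1, a collagen of tissue junctions, had 31.3, 36.2 and 37.8 CPM in WT and 26.2, 16.8 and 24.4 CPM in KO 1 to 3 and fell 1.56-fold (log2 change -0.64, SE 0.15, edgeR adjusted p = 0.0219). In each of these 3 all KO libraries were below all WT libraries. The call was lost without KO 3, WT 2 or WT 3 for Col12a1 (edgeR adjusted p from 0.0517 to 0.0618) and Col22a1 (0.0571 to 0.0795), and without WT 3 for Col16a1 (0.0525). Col22a1 was also not called without a filter on low counts (0.0722) or with the Y-linked share as a covariate (0.0544). Col14a1, Col19a1 and Col20a1 were not called, with log2 fold changes from -0.05 to 0.12.

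The transmembrane and unclassed collagens held some of the firmest falls. Col25a1, a transmembrane collagen of neurons, had 6.85, 8.51 and 8.97 CPM in WT and 4.49, 3.73 and 3.64 CPM in KO 1 to 3. All KO libraries were below all WT libraries, and it fell 2.05-fold from 8.11 ± 1.12 to 3.96 ± 0.466 CPM (log2 change -1.03, SE 0.14, edgeR adjusted p = 0.0017). Col23a1, also a transmembrane collagen, was not called at 2.08 ± 0.0935 and 2.25 ± 0.121 CPM (edgeR adjusted p = 0.604). Col28a1, a collagen related to type VI, had 1.13, 1.34 and 1.17 CPM in WT and 0.339, 0.494 and 0.435 CPM in the libraries labelled KO and fell 2.87-fold without overlap (log2 change -1.52, SE 0.22, edgeR adjusted p = 0.00256). Col25a1 and Col28a1 were called whichever library was left out. Col26a1 had 10.4, 11.2 and 11.4 CPM in WT and 8.42, 7.22 and 8.39 CPM in KO 1 to 3 and fell 1.37-fold (log2 change -0.46, SE 0.099, edgeR adjusted p = 0.0145). Its groups did not overlap, and its call was lost without KO 2, WT 2 or WT 3 (edgeR adjusted p from 0.0592 to 0.067).

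The fibrillar collagens, the products of connective tissue cells and cartilage, held no member that fell. Of 11 tested, Col5a1 rose and 10 were not called, with log2 fold changes over the class from -0.07 to 0.44. That is 9.09% higher and 0.0% lower, beside 9.72% and 10.5% of all tested genes. Col5a1 had 14.9, 15.1 and 14.2 CPM in WT and 20.0, 18.2 and 17.2 CPM in KO 1 to 3 and rose 1.25-fold without overlap (log2 change 0.33, SE 0.083, edgeR adjusted p = 0.0248). That call was lost without KO 2, WT 1, WT 2 or WT 3 (edgeR adjusted p from 0.0579 to 0.101). Col2a1, the main cartilage collagen and also a transcript of early neural tissue, had 80.3, 88.3 and 82.3 CPM in WT and 75.7, 105 and 122 CPM in KO 1 to 3 (log2 change 0.27, SE 0.15, edgeR adjusted p = 0.233). KO 1 was the lowest of the 6 libraries for Col2a1 and KO 2 and KO 3 the highest, and without KO 1 the value was 0.45 (edgeR adjusted p = 0.000343). Col5a2 had 61.1, 52.1 and 51.7 CPM in WT and 71.7, 44.1 and 49.2 CPM in KO 1 to 3, with KO 1 the highest library (log2 change 0.00, SE 0.17, edgeR adjusted p = 1.0). Col1a1, Col1a2 and Col3a1, the collagens of fibroblasts, had 0.594, 7.03 and 5.55 CPM on average in WT and 0.629, 6.72 and 5.94 CPM in the libraries labelled KO.

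Meningeal cells are a known source of fibrillar and type VI collagen. Of the 14 listed markers of meningeal fibroblasts 7 were expressed highly enough to be tested, and Lum, Twist2 and Aldh1a2 had at most 3 counts in each library. Crabp2 rose and Ogn fell, and the list summed to between 24.8 and 27.9 CPM in WT and between 37.1 and 66.1 CPM in the libraries labelled KO. Crabp2 alone gave 19.2, 16.8 and 15.9 CPM in WT and 29.0, 50.8 and 57.3 CPM in KO 1 to 3. The other 13 markers summed to between 8.76 and 9.02 CPM in WT and between 8.01 and 8.81 CPM in the libraries labelled KO. Ogn is in that sum and went from 1.07 ± 0.354 to 0.112 ± 0.0495 CPM. Foxc2 (log2 change 0.56), Foxd1 (0.52) and Twist1 (1.14) were higher and not called. Foxc1 (-0.07) and Tbx18 (-0.49) were lower and not called. Over the 7 tested markers the median log2 change was 0.52. In 3 (42.9%) all KO libraries were above all WT libraries, beside 20.3% of all tested genes. In 1 (14.3%) they were below, beside 19.6%. Of 7 choroid plexus markers 3 were tested and Otx2 rose (sums between 12.2 and 14.2 CPM in WT and between 28.5 and 35.2 CPM in KO). Nearly all of that sum was Otx2, and the other 6 markers summed to between 1.11 and 1.58 CPM in WT and between 1.07 and 1.41 CPM in KO. The part of neighbouring tissue in the levels of Lama1, Col18a1, Col9a1 and Col5a1 was not tested. Of 10 radial glia markers 8 rose (80.0%, beside 9.72% of all tested genes). That list summed to between 2325 and 2529 CPM in WT and between 3082 and 3582 CPM in the libraries labelled KO. Slc1a3 on the same list fell (log2 change -0.65, edgeR adjusted p = 0.00201). Mki67 was not called (-0.25, edgeR adjusted p = 0.0585), with all KO libraries below all WT libraries. Of 8 neuron markers 3 fell (37.5%, beside 10.5% of all tested genes), with sums of 5977 to 6135 and 5339 to 5633 CPM. Of 10 microglia markers 3 fell (46.2 to 49.9 and 36.2 to 41.7 CPM), and of 9 tested red blood cell markers 6 rose (144 to 199.7 and 711 to 1159.9 CPM). Their part in the matrix genes was likewise not tested.

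Type VI collagens, which form beaded filaments near basement membranes, were scarce. Col6a5 had 3.06, 3.82 and 3.75 CPM in WT and 2.57, 2.77 and 2.32 CPM in KO 1 to 3 and fell 1.39-fold without overlap (log2 change -0.47, SE 0.15, edgeR adjusted p = 0.0468). It was the call nearest the threshold, lost without KO 2, KO 3, WT 2 or WT 3 (edgeR adjusted p from 0.0881 to 0.173) and with DESeq2 (0.0558), limma voom (0.0526), upper-quartile scaling (0.0501) or no filter on low counts (0.0525). Col6a3 had 0.824, 1.52 and 0.913 CPM in WT and 0.812, 0.384 and 0.272 CPM in KO 1 to 3, and was not called although the groups did not overlap (log2 change -1.14, SE 0.40, edgeR adjusted p = 0.0692). It was called by DESeq2 (adjusted p = 0.0478) and by edgeR without KO 1 (0.00169) or without the filter (0.0198). The edgeR fit with the Y-linked share as a covariate called it too. Col6a1, Col6a2 and Col6a4 were not called, with log2 fold changes from -0.09 to 0.24. Of the anchoring fibril and hexagonal network collagens only Col7a1 was tested (log2 fold change 0.18, edgeR adjusted p = 0.356).

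The other 6 members were too low to test. A count of 3 corresponds to between 0.0544 and 0.0896 CPM, depending on the library. Col10a1 had 0, 0 and 1 counts in WT against 1, 0 and 2 in KO, and Col13a1 had 2, 1 and 1 against 0, 3 and 4. Col17a1 had 3, 6 and 4 counts in WT and 4, 2 and 7 in KO, and Col8a2 had 6, 8 and 6 against 3, 5 and 2. Differences in these were not detectable at this depth. Col8a1, a collagen of vessel walls, had 5, 16 and 18 counts in WT and 3, 3 and 2 in KO, and Col6a6 had 9, 7 and 11 against 4, 4 and 8. With no filter on low counts Col8a1 was called (edgeR adjusted p = 0.00117) and Col6a6 was not.

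The promoter windows of the members could be read for 41 of the 57 genes (45 windows of 250 bases ahead of the start, RefSeq). The GC box letters GGGCGG occurred on either strand in 25 windows (55.6%), against 32.7% of 32851 windows of all genes. CCAAT occurred in 15 (33.3%, all genes 33.8%) and TATAAA in 5 (11.1%, all genes 12.4%). The GC box letters were in 6 of the 9 windows of members that fell (66.7%) and in 14 of the 25 windows of members that were not called (56.0%). These are counts of letters, and nothing about binding follows from them.

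Other components of basement membranes fell in part. Of 20 tested, 6 fell and none rose, beside 10.5% lower and 9.72% higher of all tested genes. The median log2 fold change was -0.13, beside -0.0024 over all tested genes. Smoc1, a calcium-binding matrix protein, had 67.3, 64.4 and 64.2 CPM in WT and 37.3, 39.0 and 40.1 CPM in the libraries labelled KO. The groups were far apart, and it fell 1.68-fold (log2 change -0.75, SE 0.057, edgeR adjusted p = 7.74e-05). Fbln2, a fibulin that binds laminin and nidogen, fell 1.84-fold from 21.2 ± 1.48 to 11.5 ± 0.892 CPM (edgeR adjusted p = 0.000374). Npnt, an integrin ligand of basement membranes, fell 1.7-fold from 10.1 ± 1.19 to 5.92 ± 0.881 CPM (edgeR adjusted p = 0.0059). Fbln5, a fibulin of elastic fibres, fell 2.73-fold from 0.536 ± 0.107 to 0.194 ± 0.0313 CPM (edgeR adjusted p = 0.0137), lost without KO 3 (0.0645) or WT 2 (0.0611). Egflam, which encodes the dystroglycan ligand pikachurin, fell 1.63-fold from 3.48 ± 0.352 to 2.12 ± 0.377 CPM (edgeR adjusted p = 0.0176), lost without KO 2, KO 3, WT 1 or WT 2 (0.0503 to 0.0771).

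Receptors for laminin and collagen changed in both directions, with 3 of 17 higher (17.6%) and 2 lower (11.8%), beside 9.72% and 10.5% of all tested genes. Itga7, an integrin alpha chain that binds laminin, had 3.06, 3.85 and 4.41 CPM in WT and 1.15, 1.02 and 1.11 CPM in the libraries labelled KO and fell 3.43-fold (edgeR adjusted p = 0.000347). Ddr2, a receptor kinase for fibrillar collagen, had 3.01, 4.12 and 3.65 CPM in WT and 1.24, 1.21 and 1.07 CPM in KO 1 to 3 and fell 3.06-fold (edgeR adjusted p = 0.000456). Neither gene overlapped between the groups, and both calls held whichever library was left out. Adgrg6, an adhesion receptor for laminin and type IV collagen, rose 1.95-fold from 1.22 ± 0.23 to 2.4 ± 0.374 CPM (edgeR adjusted p = 0.0113, 0.0521 without WT 3). Itga6, the laminin-binding integrin chain of radial progenitors, rose 1.2-fold from 44.5 ± 1.79 to 53.3 ± 4.45 CPM (edgeR adjusted p = 0.0327), and Ddr1, a collagen receptor kinase, rose 1.15-fold from 295 ± 2.66 to 341 ± 14.7 CPM (edgeR adjusted p = 0.0311). The Itga6 call was lost without KO 2, WT 1, WT 2 or WT 3 (edgeR adjusted p from 0.0556 to 0.136) and the Ddr1 call without any library but KO 1 (0.0861 to 0.117).

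Of 31 genes of collagen synthesis and crosslinking 2 rose (6.45%) and none fell by edgeR, beside 9.72% and 10.5% of all tested genes. Log2 changes over the list ran from -0.83 to 0.72. The groups did not overlap in 11 (35.5%), against 39.9% of all tested genes. Serpinh1, the collagen chaperone HSP47, rose 1.27-fold from 142 ± 6.16 to 179.9 ± 15.9 CPM (edgeR adjusted p = 0.0121), lost without KO 2, WT 2 or WT 3 (0.0525 to 0.0624). P4hb, a subunit of collagen prolyl hydroxylase, rose 1.14-fold from 228 ± 5.11 to 259.8 ± 13.2 CPM (edgeR adjusted p = 0.0464), lost without any library but KO 1 (0.0799 to 0.166) and with library totals in place of scaling (0.0543). Larger differences that missed the threshold were those of Tll2, a procollagen-processing protease family member (4.64 ± 0.48 and 2.69 ± 1.21 CPM, log2 change -0.78), Lox, a crosslinking enzyme (0.495 ± 0.0619 and 0.833 ± 0.23 CPM, 0.72), and Adamts14, a procollagen protease (0.4 ± 0.0159 and 0.635 ± 0.124 CPM, 0.67). Their groups did not overlap (edgeR adjusted p = 0.0619, 0.0829 and 0.0871), and without KO 1 edgeR called Tll2 (4.8e-05) and Lox (0.0326). Tll2 was also called with all libraries by DESeq2 (adjusted p = 0.0154), by limma voom (0.0403) and by edgeR with the Y-linked share as a covariate (0.00357). Dag1 encodes dystroglycan, the laminin receptor of glial endfeet, and is named here after its values were seen. With all libraries and no covariate it was not called (log2 fold change -0.19, edgeR adjusted p = 0.238). Dag1 was called without KO 1 (-0.35, 8.51e-05) and with the Y-linked share as a covariate (-0.3, 0.0042). Over these lists and a list of dystroglycan glycosylation genes together, 9 of 82 tested genes fell (11.0%) and 6 rose (7.32%), beside the 10.5% and 9.72% of all genes.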

How the data were processed

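Raw counts of reads per Ensembl gene, as deposited by the authors, were the input of every test. The submitters' processing notes name the build GRCm38, DESeq2, featureCounts, Subread 1.5.2, STAR 2.5.2b and Trimmomatic 0.36. The annotation release and strand setting were not found in the sources used here. The authors' normalized table was not used, because 2 of its columns share a name. Symbols, positions and exon lengths came from GENCODE M21 (49056 of 49315 IDs found). After filterByExpr (minimum count 10, minimum total 15), genes were compared in edgeR 4.0.16 (R 4.3.3) with TMM scaling, the robust quasi-likelihood test of 3 WT against 3 KO libraries and Benjamini-Hochberg adjustment at 0.05. Each SE was the absolute log2 change divided by the root of the F statistic. Biological variation between libraries had a coefficient of 9.52%. In a simulation of this comparison (17849 genes) 76% of the genes given a 1.5-fold change and 97% of those given a 2-fold change were called, and 4.945% of calls were false. Changes were given only to well-counted genes, with a spread set by the trend over all genes and no library standing apart as KO 1 did. The rates therefore do not cover the scarce members.

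Named were every called member, the 10 highest per kilobase, each tested type IV collagen, laminin and nidogen, and up to 5 genes of smallest p in each of the 4 related lists. Cell markers named as examples beside these were taken from the lists. Some items that this rule names are not reported here. Other names are the class members given as ranges, Col6a3 and Dag1, the last of these picked after its values were seen. The members and lists were chosen with earlier results of these data known. Alternatives were RLE and upper-quartile scaling, library totals, no or a stricter filter (1 CPM in 3 libraries), DESeq2 1.42.0, limma 3.58.1 voom, no robust spread, a replicate block, the Y-linked share as a covariate and each library left out. Counts of 3 set the floor, which covers counting error only. Labels describe separate pools of embryos. Replicate numbers did not pair the pools, with correlations of deviations of -0.0756, -0.123 and 0.0264.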

Additional observations from a re-analysis of the deposited data

How the results depend on the processing

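The counts depended on the libraries kept. With 1 library left out in turn, between 3 and 7 members rose and between 7 and 23 fell, between 464 and 3752 genes in all rose and between 727 and 3804 fell, and between 0 and 11 genes of the related lists rose and between 6 and 17 fell. The members' median log2 fold change ran from -0.17 to -0.02. With the replicate block, 3 members rose and 12 fell, 862 genes in all rose and 1219 fell, and 3 genes of the related lists rose. The calls of Lama2, Lama3, Lamb1, Col4a3, Col4a6, Col5a1 and Col6a5 were lost under the block (edgeR adjusted p = 0.0526, 0.0584, 0.0556, 0.0577, 0.053, 0.0514 and 0.0887), and Lamc1 was gained (0.0438). With the Y-linked share as a covariate, 5 members rose and 21 fell, 2973 genes in all rose and 3283 fell, and 15 genes of the related lists fell, while the call of Col22a1 was lost (0.0544). The causes were not tested. Other scalings, filters, DESeq2, voom and no robust spread gave 4 members higher and 16 or 17 lower.

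No called member changed direction in 335 member and alternative pairs; 275 kept the call and 60 lost it. Lama1, Lama4, Lama5, Col4a4, Col9a1, Col18a1, Col25a1 and Col28a1 were among the members called under all 16 alternatives. Of the laminins, nidogens, type IV chains and most abundant members, Col5a2, Nid2, Lamb3 and Col4a5 changed sign, and none of these was called. Col5a2 was at -0.01 with library totals, -0.0031 with the stricter filter, -0.03 with voom, -0.02 with the block, -0.13 with the covariate and -0.23 to 0.14 with a library left out. Nid2 was at -0.01 with the covariate and -0.02 to 0.07 with a library left out, Lamb3 at -0.001 to 0.38 and Col4a5 at -0.07 to 0.01. Members given only by range changed sign too, Col19a1 between -0.59 and 0.49 and Col6a2 between -0.03 and 0.49 among them. Low counts limit the 6 untested members.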
